A study of Mus musculus with 6 samples.

Results

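A set of 9 genes that hold epithelial cells in their epithelial state was followed: the transcription factors Grhl1, Grhl2, Ovol1, Ovol2, Elf3, Ehf and Klf5, and the splicing factors Esrp1 and Esrp2. They were taken by name, whatever their values, and all 9 were found among the 24454 genes of the expression table. The cells are MTflEcad, a mouse line from a tumour of the mammary gland of the MMTV-Neu strain, in which the MMTV promoter drives the Neu oncogene. The group PBS (0 µM H2O2) is the line without H2O2, I80 received 80 µM H2O2 every day for 7 months, and DI150 received 150 µM daily for the same time. A treatment time of 7 months is listed for PBS as well. Each group has 2 libraries of total RNA depleted of ribosomal RNA, described by the submitters as biological duplicates. Each dose is 1 line, so that dose and line cannot be told apart, and p-values measure only the spread between these libraries.

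Grainyhead-like factors such as GRHL2 bind enhancers and promoters of junction genes and keep them open. OVOL1 and OVOL2 are zinc-finger repressors that hold down genes of the epithelial-mesenchymal transition (EMT), among them Zeb1. ELF3 and EHF are ETS factors restricted largely to epithelia, and KLF5 is a Krüppel-like factor of proliferating epithelium. ESRP1 and ESRP2 are RNA-binding proteins that select the epithelial exons of genes such as Fgfr2 and Cd44.

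Reads assigned to genes ran from 21017849 to 26608715 per library, and a member held 90 to 7245 reads in a library. Levels are CPM, reads of a gene per 1000000 assigned reads. Calls rest on limma's moderated test on log2(CPM + 0.5), with a threshold of 0.05 on the p-value adjusted over the 11428 genes whose average reached 1 CPM. All 9 members passed that filter. Some luminal keratins marked all 6 libraries: Krt8 stood at 568.3 to 2018 CPM, with the 2 lowest values in DI150 and the highest in PBS. Krt7 and Krt18 also fell but remained abundant. Other keratins nearly or wholly vanished: Krt14 averaged 1701 CPM in PBS, 0.487 in I80 and 0.062 in DI150. Krt15 went from 33 CPM to 0.1 and 0.25, and Krt19 from 8.5 CPM to 0 in both treated lines. The 7 luminal markers summed to 8280 and 7764 CPM in PBS, 2278 and 2346 in I80, against 2029 and 1819 in DI150. Most of these sums was Krt7, Krt8 and Krt18. Of the luminal markers that are not keratins, Cd24a went from a mean of 32.9 CPM in PBS to 0.762 in I80 and 8.05 in DI150. Prom1 went from 1.10 CPM to 0.078 and 0.067, and Muc1 from 0.548 to 0.360 and 0.310. The 8 basal markers summed to 1761 and 1717 CPM in PBS, nearly all of it Krt14, and to 1.86 to 4.57 CPM in the treated libraries. The other basal markers besides Krt15 were already low in PBS. Mylk averaged 2.74 CPM there, Krt5 1.53, Krt17 1.15, Myh11 0.059, Cnn1 0.058 and Acta2 0.020. Acta2 was higher in the treated lines, at 0.825 CPM in I80 and 0.148 in DI150. The 8 fibroblast markers summed to 21.8 to 24.0 CPM in every library, and 5 and 2 of them were at 0 in PBS against 5 or 6 in each treated library. Single fibroblast markers moved opposite ways under that level sum: Col1a2 went from 15.3 CPM in both PBS libraries to 0 in every treated one, Pdgfra rose from a mean of 5.27 CPM to 14.8 in I80 and 18.7 in DI150, and Col1a1 rose from 2.11 to 8.90 and 3.74. The 8 leukocyte markers summed to 9.77 and 17.2 CPM in PBS, mostly Csf1r, and to 1.81 to 2.14 CPM in treated libraries, with Adgre1 and Cd3e at 0 throughout. The 6 endothelial markers summed to at most 0.404 CPM, and the 6 adipocyte markers to at most 0.162 CPM outside DI150, where nearly all of the sum of 11.8 and 13.6 CPM was Lpl. In bulk RNA, fewer cells of a type and less RNA per cell cannot be told apart. The part of these markers in the results below was not tested.

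RefSeq promoter entries (GRCm38.p6, the patch release of the mm10 build) were found for 3 of the 9 members, Elf3, Grhl1 and Ovol2. The upstream stretches outside annotated exons of Elf3, the member with the deepest fall, and of Grhl1, whose change passed in no comparison, are set side by side. The Elf3 stretch is chr1:135258569-135258722 on the minus strand, and the Grhl1 stretch is chr12:24572037-24572231 on the plus strand, each written 5′ to 3′ along its gene. Capitals mark CACCTG (an E-box form that ZEB and SNAIL repressors bind), GGAA (the core bound by ETS factors) and GGGCGG (a GC box), on either strand.
Elf3: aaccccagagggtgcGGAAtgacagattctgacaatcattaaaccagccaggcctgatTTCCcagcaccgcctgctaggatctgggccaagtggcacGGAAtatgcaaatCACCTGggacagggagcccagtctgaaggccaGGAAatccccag
Grhl1: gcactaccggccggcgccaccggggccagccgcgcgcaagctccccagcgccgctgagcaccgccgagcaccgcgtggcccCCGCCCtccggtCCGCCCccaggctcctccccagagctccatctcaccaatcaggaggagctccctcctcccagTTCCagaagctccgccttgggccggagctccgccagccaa
The Elf3 stretch held 1 CACCTG, 140 bases upstream of the RefSeq start, and 4 ETS cores, 3 on the gene's strand and 1 on the other. CACCTG or its reverse CAGGTG occurred in 11.1% of the 32851 promoter entries over the same 154 bases, and GGAA or TTCC in 82.5%. The Grhl1 stretch of 195 bases held no CACCTG, 1 ETS core and 2 GC boxes. At least 1 match on either strand was held by 14.2%, 88.6% and 23.8% of promoters over the same 195 bases. All these shares count promoters with at least 1 match, and shares with as many matches as Elf3 or Grhl1 are not given. Neither held AACCGGTT, the grainyhead site, which 0.0791% and 0.0944% of promoters had in these windows. No motif overlapped another, and a match is a description of letters only.

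**Figure D1:**
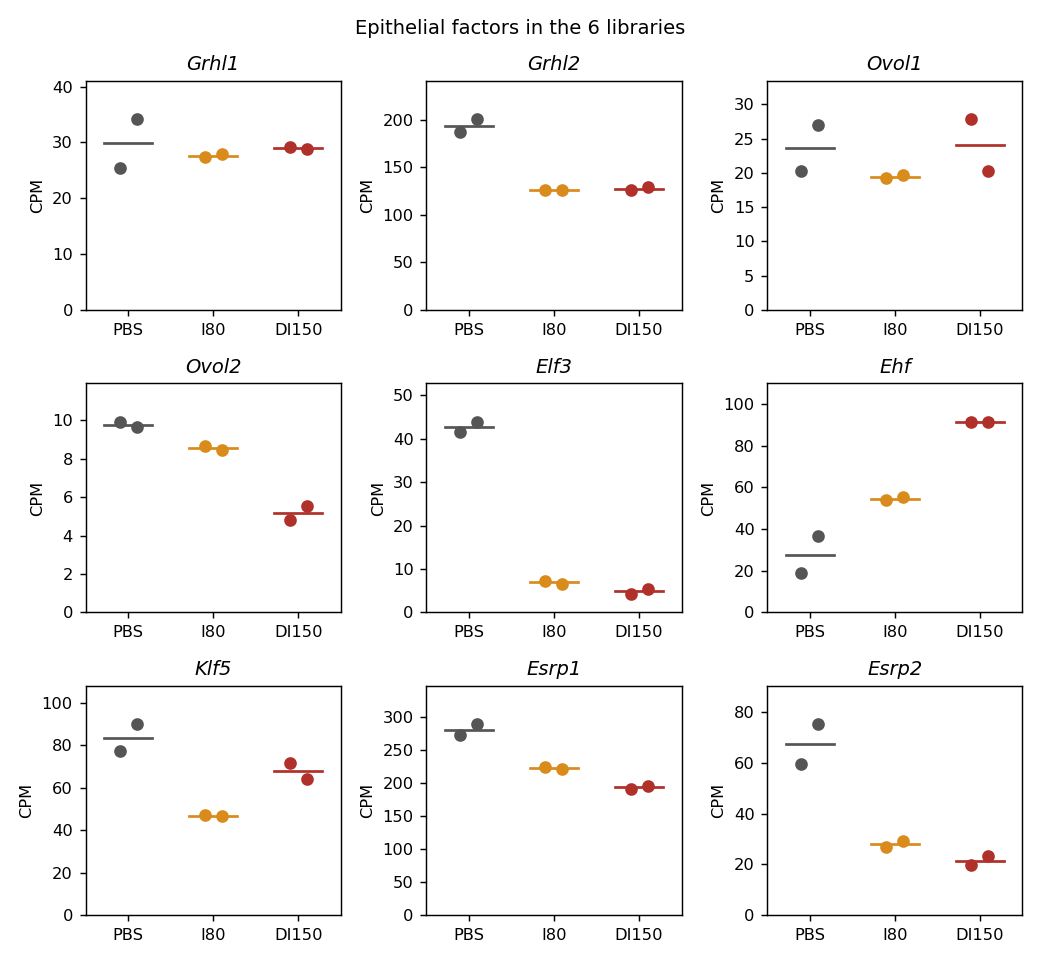
CPM of the 9 factors in each of the 6 libraries (points) with group means (bars), on linear axes that start at 0. Elf3, Esrp2 and Grhl2 are lower in every treated library than in PBS, Ehf is higher in every treated library, and the PBS points are spread for Ehf, Grhl1 and Ovol1.

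The comparison of I80 with PBS asks which of these factors differed after 7 months at 80 µM. Elf3, Esrp2, Klf5, Grhl2 and Esrp1 fell, Ehf rose, and Grhl1, Ovol1 and Ovol2 did not pass. In all, 6 of 9 members were called, which is 66.7% beside 66.4% of all tested genes. By direction, 5 of 9 were lower, beside 34.2% of all genes, and 1 was higher, beside 32.3%. Their median log2 fold change was -0.34, against -0.0020 over all tested genes. Groups did not overlap for 8 of 9 members, beside 83.7% of all genes, and 2 of 9 were called with a 2-fold difference, beside 22.2%. The count of calls ran from 6 to 7 over all alternatives tried.

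The comparison of DI150 with PBS asks the same at 150 µM. There 7 of 9 members were called, 77.8% beside 68.7% of all genes: Elf3, Esrp2, Ovol2, Grhl2, Esrp1 and Klf5 fell and Ehf rose. The 6 lower members stand beside 36.1% of all genes, and the 1 higher member beside 32.7%. The median log2 fold change of the members was -0.54, against -0.032 over all genes. Groups did not overlap for 7 of 9, beside 83.5%, and 3 of 9 were called with a 2-fold difference, beside 23.0%. Both comparisons share the PBS libraries. In 8 of 9 members PBS replicate 1 lay below PBS replicate 2, a count with no share over all genes to set beside it.

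DI150 against I80 tests whether the treated lines differed from each other. Ovol2, Elf3 and Esrp1 were lower in DI150, and Klf5 and Ehf were higher. These 5 of 9 calls are 55.6%, beside 43.8% of all genes. The 3 lower members stand beside 21.9% of all genes, and so do the 2 higher ones (21.9%). Groups did not overlap for 8 of 9 members, beside 78.5%, and none reached 2-fold, where 8.04% of all genes were called with such a difference. This count was the least stable: it fell to 3 with no filter on low values and every library kept. It also fell when any 1 treated library was left out.

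**Figure D2:**
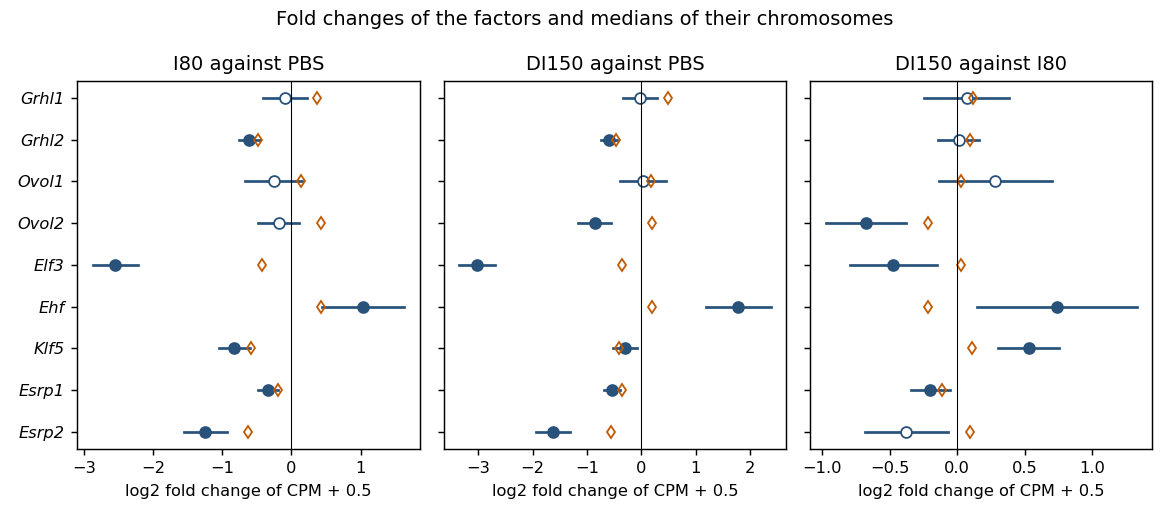
Log2 fold changes on the CPM + 0.5 scale (points) with 95% intervals from the fit (lines) in the 3 comparisons. Filled points passed the test, open points did not, and diamonds are the median over tested genes of the member's chromosome. Elf3 and Esrp2 lie below their chromosome's median against PBS and Ehf lies above it, while Grhl2 and Esrp1 lie closer to it.

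The ETS factors of the set moved in opposite directions. Elf3 (gene 13710, chromosome 1 of GRCm38 at 135253574 to 135258472) read 41.6 and 44.0 CPM in PBS, 7.26 and 6.55 in I80, against 4.28 and 5.42 in DI150. Every treated library lay far below both PBS libraries, and both DI150 libraries lay below both I80 libraries. The mean was 6.19-fold lower in I80 (-2.55 ± 0.14 SE in log2 fold change, limma adjusted p = 3.03e-06) and 8.82-fold lower in DI150 (-3.02 ± 0.14, limma adjusted p = 1.14e-06). Between the treated lines it was 1.42-fold lower in DI150 (limma adjusted p = 0.0274). Elf3 shares 162 of its 2217 exon bases with Gm26642 on the opposite strand. The call between the treated lines was lost without I80 replicate 1, I80 replicate 2 or DI150 replicate 1 (limma adjusted p = 0.163, 0.083 and 0.155).

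Ehf (gene 13661, chromosome 2 at 103263431 to 103303275) read 18.8 and 36.6 CPM in PBS, 53.7 and 55.3 in I80, against 91.3 and 91.5 in DI150. The PBS libraries lay far apart, yet the 3 groups did not overlap. Ehf was 1.97-fold higher in I80 (1.04 ± 0.25 SE in log2 fold change, limma adjusted p = 0.0078) and 3.30-fold higher in DI150 (1.78 ± 0.25, limma adjusted p = 0.000485). The difference between the treated lines, 1.68-fold, was close to the threshold (limma adjusted p = 0.0482). It was lost when any treated library was left out (0.155 to 0.171).

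Per length the order of these ETS genes turned round. In CPM per kb of exon, Elf3 stood at 18.8 and 19.8 in PBS and Ehf at 3.36 and 6.57, so that Elf3 was 5.58 and 3.02 times the level of Ehf. In I80, Ehf stood 2.94 and 3.35 times above Elf3, and in DI150 8.48 and 6.71 times above it. Their summed level per kb was 22.1 and 26.4 in PBS, 12.9 in both I80 libraries, and 18.3 and 18.8 in DI150. With 2 libraries a group, an exact permutation test of such a ratio cannot fall below 0.333, so that none is given. Elf5, an ETS factor of alveolar luminal cells, averaged 173.4 CPM in PBS, 175.6 in I80 (limma adjusted p = 0.85) and 234.6 in DI150 (limma adjusted p = 0.0053).

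**Figure D3:**
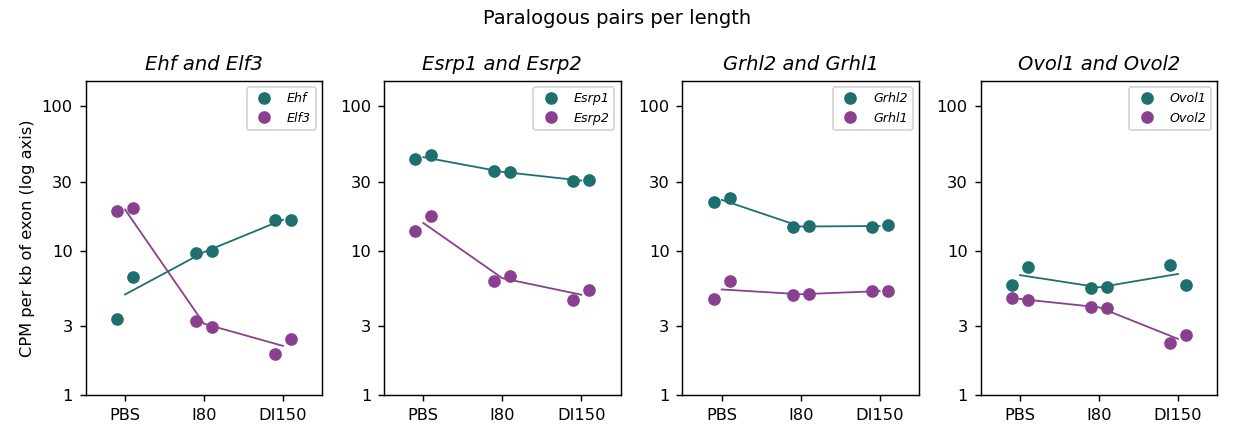
Levels of 4 pairs of related genes in CPM per kb of exon (log axis) in each library (points), with lines through group means. Ehf and Elf3 cross between PBS and I80, Esrp2 falls further than Esrp1, and the order within the other pairs is kept in all 6 libraries.

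The splicing factors both fell, Esrp2 by more than Esrp1. Esrp1 (gene 207920, chromosome 4 at 11331933 to 11386783) had the highest level per length of the 9 genes in every group, 44.5 CPM per kb in PBS, 35.2 in I80 and 30.6 in DI150. Its CPM were 272.3 and 288.8 in PBS, 223.3 and 220.4 in I80, against 190.8 and 195.5 in DI150, with no overlap between the 3 groups. Esrp1 shares 127 exon bases with Gm26663 on the opposite strand. The fall was 1.26-fold in I80 (-0.34 ± 0.06 SE in log2 fold change, limma adjusted p = 0.00197) and 1.45-fold in DI150 (-0.54 ± 0.06, limma adjusted p = 0.000161). DI150 was 1.15-fold below I80 (limma adjusted p = 0.035), a call lost when any treated library was left out (0.0934 to 0.194).

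Esrp2 (gene 77411, chromosome 8 at 106130319 to 106137193) read 59.7 and 75.3 CPM in PBS, 26.8 and 29.1 in I80, against 19.8 and 23.2 in DI150. Both treated lines lay below PBS without overlap. Esrp2 fell 2.41-fold in I80 (-1.25 ± 0.13 SE in log2 fold change, limma adjusted p = 0.000105) and 3.14-fold in DI150 (-1.62 ± 0.13, limma adjusted p = 2.42e-05). DI150 against I80 missed the threshold (-0.38 ± 0.13, limma adjusted p = 0.0524) and passed with edgeR (0.038), DESeq2 (0.0417) and 7 other alternatives. Esrp2 made up 24.2% and 27.5% of the summed ESRP level per kb in PBS, 14.9% and 16.1% in I80, against 13.1% and 14.7% in DI150. The sum itself was 56.9 and 63.2 CPM per kb in PBS, 41.6 and 41.7 in I80, against 34.8 and 36.3 in DI150. Exons of Esrp2 share 219 bases with Nfatc3 and 119 with 1810019D21Rik, both on the opposite strand. Reads there cannot be told apart, since no source used here says whether strand was counted.

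Of the grainyhead-like genes, Grhl2 fell and Grhl1 did not pass. Grhl2 (gene 252973, chromosome 15 at 37232821 to 37363569) read 186.8 and 200.8 CPM in PBS, 126.7 in both I80 libraries, and 126.3 and 129.1 in DI150. The treated lines overlapped each other and lay below PBS. Its fall was 1.53-fold in I80 (-0.61 ± 0.06 SE in log2 fold change, limma adjusted p = 0.000104) and 1.52-fold in DI150 (-0.60 ± 0.06, limma adjusted p = 0.000108). The treated lines differed by 0.01 on the log2 scale, with a 95% interval from -0.14 to 0.16 (limma adjusted p = 0.908). Grhl2 shares 169 exon bases with Gm16136 on the opposite strand.

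Grhl1 (gene 195733, chromosome 12 at 24572232 to 24617391) read 25.5 and 34.2 CPM in PBS, 27.4 and 27.9 in I80, against 29.2 and 28.9 in DI150. The treated libraries all lay between the PBS libraries. The 95% interval of its log2 fold change was -0.41 to 0.22 in I80 (limma adjusted p = 0.56) and -0.34 to 0.29 in DI150 (limma adjusted p = 0.893). Without PBS replicate 1 it would have been called lower in both lines (limma adjusted p = 0.0206 and 0.0448), and without PBS replicate 2 its direction turned. Grhl3, the third family member, stood far lower, at 2.44 and 8.41 CPM in PBS, 0.117 and 0.371 in I80, against 0.714 and 0.801 in DI150, and fell in both lines (limma adjusted p = 0.00108 and 0.00549).

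Of the OVOL repressors, Ovol2 fell in DI150 and Ovol1 passed in no comparison. Ovol2 (gene 107586, chromosome 2 at 144305175 to 144332080) read 9.92 and 9.62 CPM in PBS, 8.66 and 8.45 in I80, against 4.81 and 5.53 in DI150. I80 lay a little below PBS and DI150 well below both. It was 1.89-fold lower in DI150 than in PBS (-0.86 ± 0.13 SE in log2 fold change, limma adjusted p = 0.000596) and 1.66-fold lower than in I80 (-0.68 ± 0.13, limma adjusted p = 0.00467). I80 against PBS did not pass (-0.18 ± 0.13, limma adjusted p = 0.239) and had the opposite sign under quantile normalization (0.02). Of the 2113 exon bases of Ovol2, 359 are shared with 1700108N11Rik on the opposite strand, so that its count is uncertain to that extent.

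Ovol1 (gene 18426, chromosome 19 at 5549137 to 5560575) read 20.2 and 27.0 CPM in PBS, 19.2 and 19.7 in I80, against 27.8 and 20.3 in DI150. One library each of PBS and DI150 was high and the others lay close together. No comparison passed (limma adjusted p = 0.233, 0.914 and 0.238), and the 95% interval for DI150 against PBS, -0.40 to 0.44 on the log2 scale, allows a change either way. Ovol1 shares 690 exon bases with Gm31166, a processed pseudogene on the other strand, and 76 with AC126029.1, also on the other strand. The count of Ovol1 is uncertain to that extent.

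Klf5 was lowest in I80. Klf5 (gene 12224, chromosome 14 at 99298691 to 99313412) read 77.4 and 90.1 CPM in PBS, 47.0 and 46.5 in I80, against 71.7 and 64.0 in DI150. The 3 groups did not overlap, with DI150 between I80 and PBS. Klf5 fell 1.79-fold in I80 (-0.83 ± 0.10 SE in log2 fold change, limma adjusted p = 0.000167), and DI150 was 1.45-fold above I80 (0.53 ± 0.10, limma adjusted p = 0.00404). The smaller fall in DI150 against PBS (-0.30 ± 0.10, limma adjusted p = 0.0244) was lost without PBS replicate 2 (0.107), DI150 replicate 3 (0.151) or either I80 library (0.0505). Its relative Klf4, a factor of differentiating epithelium, fell from 21.3 and 36.7 CPM in PBS to 0.234 and 0.247 in I80, against 1.19 and 0.878 in DI150 (limma adjusted p = 1.71e-06 and 5.24e-06).

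Ordered by level per length, the members changed places. In PBS the order was Esrp1, Grhl2, Elf3, Klf5, Esrp2, Ovol1, Grhl1, Ehf and Ovol2, from 44.5 down to 4.63 CPM per kb. In DI150 it was Esrp1, Ehf, Grhl2, Klf5, Ovol1, Grhl1, Esrp2, Ovol2 and Elf3, from 30.6 down to 2.19 CPM per kb. Elf3 went from the third place by mean to the last, and Ehf from among the 4 lowest to the second. The order of those 4 in PBS was not resolved: Ovol1 ran from 5.80 to 7.73 CPM per kb, Grhl1 from 4.60 to 6.17, Ehf from 3.36 to 6.57 and Ovol2 from 4.56 to 4.69, with overlaps between all but Ovol1 and Ovol2. Also overlapping were Klf5 and Esrp2 in PBS (14.9 to 17.3 and 13.8 to 17.4), and in DI150 Grhl1 and Esrp2 (5.21 to 5.27 and 4.56 to 5.34) and Ovol2 and Elf3 (2.27 to 2.62 and 1.93 to 2.44).

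The median change over tested genes was shifted on the chromosomes of several members, and is set beside the members' changes here. In I80 the median log2 fold change was -0.49 over 461 tested genes of chromosome 15, against -0.61 for Grhl2. It was -0.59 over 366 genes of chromosome 14, against -0.83 for Klf5, and -0.64 over 619 genes of chromosome 8, against -1.25 for Esrp2. In DI150 these medians were -0.46, -0.41 and -0.56, against -0.60 for Grhl2, -0.30 for Klf5 and -1.62 for Esrp2, so that the fall of Klf5 there was smaller than the median of its chromosome. For Esrp1, chromosome 4 had a median of -0.20 in I80 and -0.35 in DI150, against -0.34 and -0.54. Elf3, at -2.55 and -3.02, lay far from the medians of chromosome 1 (-0.43 and -0.35), and Ehf, at 1.04 and 1.78, above those of chromosome 2 (0.43 and 0.19). Grhl1 was at -0.09 and -0.02 where chromosome 12 had 0.37 and 0.49. Ovol2, also on chromosome 2, was at -0.18 and -0.86, below the medians there. Ovol1 was at -0.26 and 0.02 where chromosome 19 had 0.14 and 0.18. A median does not say how many genes of a chromosome moved, and the part of these shifts in the members' changes was not tested.

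Closer neighbours differed between loci. Around Esrp2, 42 of 48 tested genes within 1 Mb were lower in I80 than in PBS and 1 was higher, with a median log2 fold change of -0.75. Over all tested genes, 34.2% were lower and 32.3% higher. In DI150, 40 of these 48 neighbours were lower and 2 higher, with a median of -0.67, beside 36.1% and 32.7% of all genes. Among them are Nfatc3, which overlaps Esrp2 and fell from 184.2 to 102.8 and 106.7 CPM, and Cdh1, the E-cadherin gene, 466 kb away. Around Grhl2, 8 of 11 neighbours were lower in I80 and 9 of 11 in DI150 (medians -0.63 and -0.72), beside 34.2% and 36.1% of all genes. Around Klf5, 4 of 5 were lower in I80 and 5 of 5 in DI150 (medians -0.59 and -0.72), and 0 were higher in either line. Around Ovol2, 6 of 11 were higher in I80 and 3 of 11 in DI150, beside 32.3% and 32.7%, and 0 were lower in either line. Around Elf3, 15 of 27 were lower and 5 higher in I80, and 14 lower and 7 higher in DI150. Around Esrp1, 3 of 15 were lower and 1 higher in I80, and 8 lower and 0 higher in DI150. Around Grhl1, 4 of 6 were higher in I80 and 3 in DI150, and 0 lower. Around Ovol1, 29 of 77 were higher and 14 lower in I80, and 36 higher and 14 lower in DI150. The same shares over all genes stand beside these counts.

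Around Ehf, 8 of 13 tested genes within 1 Mb were higher in DI150 than in PBS and 2 were lower, with a median log2 fold change of 0.44. Over all tested genes, 32.7% were higher and 36.1% lower. In I80, 7 of these 13 neighbours were higher and 2 lower, with a median of 0.27, beside 32.3% and 34.2% of all genes. The catalase gene Cat, 151 kb from Ehf, rose from 96.7 CPM in PBS to 440.0 in I80 and 1098 in DI150 (log2 fold changes 2.18 ± 0.09 and 3.50 ± 0.09 SE, limma adjusted p = 7.47e-07 and 7.54e-08). Between Ehf and Cat lie the tested genes BC016548, at 9.75, 11.9 and 22.4 CPM in PBS, I80 and DI150, and Elf5, whose values are given above. BC016548 was higher than in PBS in DI150 (limma adjusted p = 0.000193) and did not pass in I80 (limma adjusted p = 0.119). Cd44, 362 kb on the other side, fell in both lines. This neighbourhood was looked at after the values of Cat and Ehf were known.

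**Figure D4:**
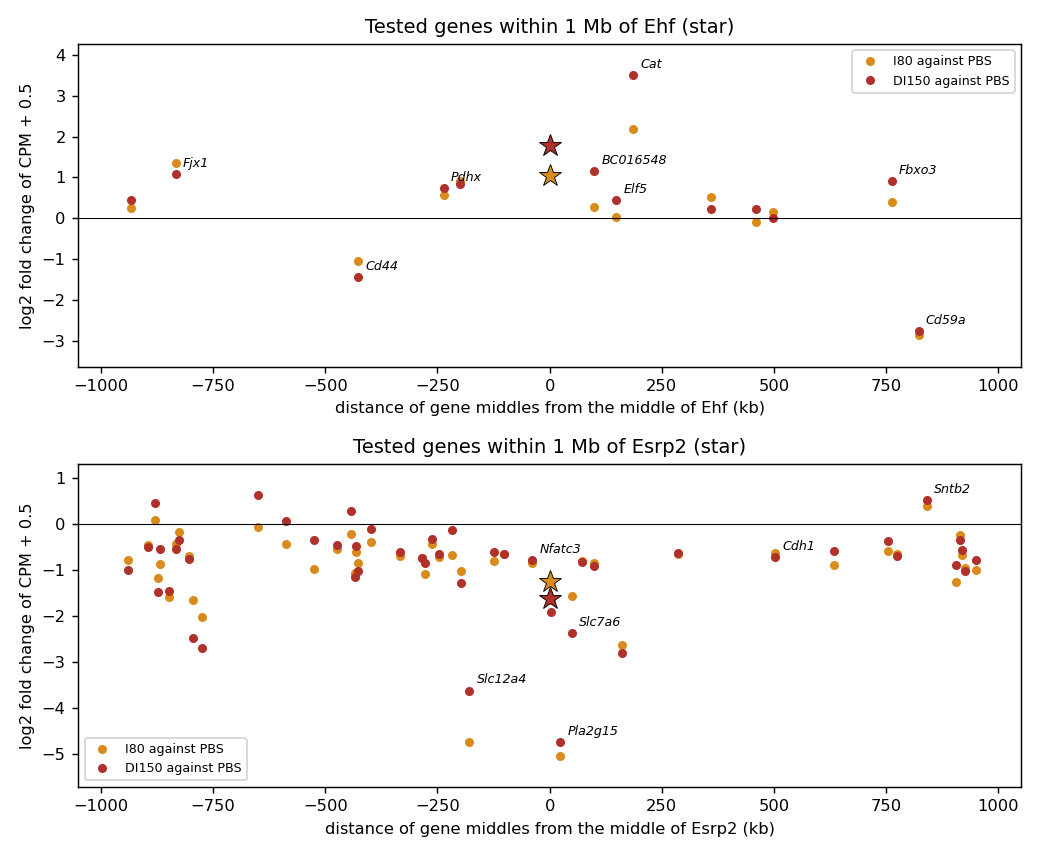
Log2 fold changes against PBS (CPM + 0.5 scale) of tested genes within 1 Mb of Ehf and of Esrp2, by distance between gene middles in kb, with the member as a star. Points near Ehf lie on both sides of 0 with Cat the highest, while nearly all points near Esrp2 lie below 0.

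Of the 14 relatives of the members, 12 were tested. In I80, 8 fell and none rose, beside 34.2% lower and 32.3% higher over all genes. In DI150, 9 fell and Elf5 rose, beside 36.1% lower and 32.7% higher. Klf4 had the lowest fitted log2 fold changes of the list, -5.26 in I80 and -4.22 in DI150. Elf4, an ETS factor of low level, went from 119 and 100 reads in PBS to 1 and 9 in I80 and 0 and 3 in DI150, which in DI150 is a larger ratio of mean CPM than that of Klf4. Tfcp2l1, another gene of the grainyhead superfamily, went from 80.0 and 104.8 CPM in PBS to 15.8 and 15.7 in I80, against 8.90 and 9.12 in DI150 (limma adjusted p = 2.64e-06 and 6.28e-07), a gene singled out after its values were seen. Ovol3 and Spdef were too low to test, with at most 3 reads in a library.

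Other transcription factors of mammary and skin epithelium went several ways. Of 12 listed, 6 were tested: 3 rose and 2 fell in I80, beside 32.3% higher and 34.2% lower over all genes. In DI150, 4 rose and 1 fell, beside 32.7% and 36.1%. Tfap2c, a regulator of luminal cells, rose from 61.7 and 73.8 CPM to 261.2 and 230.4 in I80, against 212.3 and 197.8 in DI150, 3.63-fold and 3.03-fold (limma adjusted p = 3.39e-06 and 6.97e-06). Sox9, a factor of progenitor cells, fell from 29.1 and 24.3 CPM to 0.780 and 1.07 in I80, against 0.714 and 0.992 in DI150 (limma adjusted p = 1.04e-06 and 8.98e-07).

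Genes listed as epithelial targets of these factors, not all of them genes of junctions or polarity, did not move together. Of 20 listed, all tested, 6 rose and 4 fell in I80, beside 32.3% higher and 34.2% lower over all genes. In DI150, 8 rose and 6 fell, beside 32.7% and 36.1%. The median log2 fold changes of the list were 0.06 and 0.02. Cldn4, a claudin, fell from 123.9 and 177.6 CPM in PBS to 0.936 and 0.412 in I80, against 0.428 and 0.611 in DI150 (limma adjusted p = 4.48e-07 and 3.52e-07). Spint1, an inhibitor of membrane serine proteases, rose from 111.8 and 150.3 CPM to 489.0 and 459.3 in I80, against 509.8 and 419.5 in DI150 (limma adjusted p = 2.06e-05 and 2.1e-05). Cdh1 fell 1.55-fold and 1.64-fold, and Epcam, an epithelial adhesion molecule, was 1.13-fold above PBS in I80 (limma adjusted p = 0.122) and rose 1.74-fold in DI150 (limma adjusted p = 0.000115).

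Of the 8 listed EMT factors, which OVOL and grainyhead proteins oppose, 3 passed the filter on low values: Snai1, Twist1 and Zeb2. Snai1, a repressor of Cdh1, fell from 10.8 and 7.89 CPM in PBS to 5.31 and 4.20 in I80, against 2.62 and 2.60 in DI150 (limma adjusted p = 0.00366 and 0.000144). Twist1 was at 8.12 and 8.33 CPM in PBS, 6.40 and 5.94 in I80, against 19.6 and 18.5 in DI150. It rose in DI150 (2.31-fold, limma adjusted p = 6.78e-05), and its lower value in I80 (limma adjusted p = 0.0183) was no longer called without I80 replicate 1 (0.0585) or I80 replicate 2 (0.12), with DESeq2 (0.0536), under quantile normalization (0.347) or with the replicate block (0.0701). Zeb2 stood at 3.57 and 4.37 CPM in PBS, 3.75 and 3.55 in I80, against 3.33 and 5.46 in DI150 and did not pass (limma adjusted p = 0.7 and 0.702). Reads of Zeb1 numbered 20 and 18 for PBS, 0 and 1 for I80, 7 and 2 for DI150, and Snai2 had 0 reads in every library, where a count of 0 allows up to 3 reads.

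Genes with exons that ESRP proteins are known to control were measured here only as whole genes, so that exon choice was not analysed. Of 13 listed, all tested, 5 rose and 5 fell in each line. All tested genes were 32.3% higher and 34.2% lower in I80, and 32.7% and 36.1% in DI150. Fgfr2, a receptor of fibroblast growth factors, rose from 11.1 and 10.6 CPM to 58.6 and 64.1 in I80, against 40.0 and 48.0 in DI150 (5.64-fold and 4.04-fold, limma adjusted p = 1.16e-06 and 3.37e-06). Enah, an actin regulator, rose 4.54-fold and 6.22-fold, with the largest rise of the list in DI150. Cd44, a hyaluronan receptor, fell 2.07-fold in I80 and 2.73-fold in DI150.

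Among 12 other splicing factors of epithelial and mesenchymal programmes, 2 rose and 6 fell in I80, beside 32.3% higher and 34.2% lower over all genes. In DI150, 2 rose and 7 fell, beside 32.7% and 36.1%. Mbnl3, a muscleblind protein, rose from 54.6 and 54.9 CPM in PBS to 267.2 and 261.6 in I80, against 208.7 and 209.2 in DI150 (limma adjusted p = 1.03e-07 and 1.67e-07). Rbm47, an epithelial RNA-binding protein, fell 1.95-fold in I80 and 1.36-fold in DI150 (limma adjusted p = 0.000106 and 0.00612). Qk, a splicing factor of mesenchymal cells, fell 1.29-fold and 1.80-fold (limma adjusted p = 0.0063 and 7.41e-05).

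**Figure D5:**
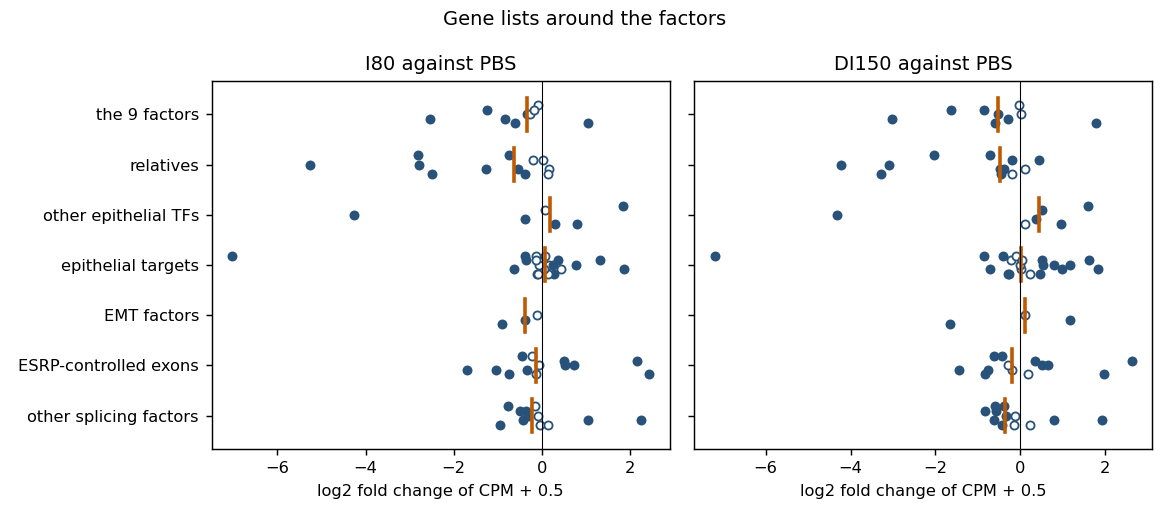
Log2 fold changes against PBS (CPM + 0.5 scale) of every tested gene of the 9 factors and of 6 related lists. Filled points passed the test, open points did not, and vertical bars are list medians, which for the 9 factors are -0.34 in I80 and -0.54 in DI150.

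Patterns most like those of Ehf and Elf3 were taken as the smallest Euclidean distance of centred log2 values over the 6 libraries, among 9839 genes. Nearest to Ehf was Trp53inp2, an autophagy gene, at a distance of 0.274, with 16.2 and 31.3 CPM in PBS, 43.6 and 37.7 in I80, against 73.8 and 71.6 in DI150. Noxo1 (0.308), an organiser subunit of NADPH oxidase, and Naaa (0.347), a lipid amidase, came next. All of these share the low value of PBS replicate 1 with Ehf. Nearest to Elf3 were Capn2 (0.38), a calpain protease, the ETS factor gene Ets2 (0.383) and Scx (0.396), a transcription factor. Ets2 read 138.5 and 157.3 CPM in PBS, 28.2 in both I80 libraries, and 21.5 and 20.5 in DI150. The 6 libraries form 3 groups, so that a small distance says little beyond a like change between groups.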

How the data were processed

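RNA of 6 libraries was measured, per the labels' protocols after depletion of ribosomal RNA. STAR and the mm10 build are named without versions in the submitters' processing notes, and no source used here gives the gene counter or its annotation. Values are CPM as the authors deposited them, for 24454 Entrez gene numbers, each column summing to 1000000. Columns were tied to groups by name. One DI150 column carries the number 3, which no label has, and is called DI150 replicate 3. A RefSeq table (GRCm38.p6) gave symbols for 24374 genes. Whole reads, recovered within 1e-06 for 100.0% of values, gave the depths and served the count tests. limma 3.58.1 (R 4.3.3) was fitted to log2(CPM + 0.5) of all 3 groups, with trended variances, two-sided tests and Benjamini-Hochberg adjustment. This scale understates changes of low genes, so folds are ratios of mean CPM. The analysis was checked on simulated counts. Alternatives were other pseudocounts, filters, scalings and variances, edgeR 4.0.16, DESeq2 1.42.0, a replicate block and leaving out each library. Levels per length used union exon lengths of GENCODE vM21. All 9 members are named. From each list, the called genes with the largest rise and fall against PBS are named, besides genes set by name; some of these results are not reported here. Members, lists and rules were chosen with earlier results of these data known.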

Additional observations from a re-analysis of the deposited data

Results flagged for a closer look

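The treated lines differed from each other in 5 of the 9 factors by the limma test of DI150 against I80 itself, 55.6% beside 43.8% of all tested genes. The log2 fold change was -0.68 for Ovol2 (adjusted p = 0.00467), 0.53 for Klf5 (0.00404), 0.74 for Ehf (0.0482), -0.48 for Elf3 (0.0274) and -0.20 for Esrp1 (0.035). Ovol2 and Klf5 passed under every alternative tried, and the calls of Ehf, Elf3 and Esrp1 were lost under some of them.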

How the results depend on the processing

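Calls against PBS were 6 to 7 members in I80 (main value 6) and 6 to 8 in DI150 (main value 7) over all alternatives. For DI150 against I80, the count of 5 became 3 with no filter on low values and 2 to 6 when 1 library was left out, a fit in which a lone library is taken to vary like the other groups. The cause was not tested. Over the alternatives, 429 member fold changes kept direction and side of the threshold, 20 lost a call, 11 gained one and 8 changed sign, all 8 among values that were not called. The sign changes were Grhl1 under quantile normalization (0.00131 in I80 and 0.042 in DI150 against PBS) and without PBS replicate 2 (0.11 and 0.19), Ovol1 in DI150 without PBS replicate 1 (-0.18) or DI150 replicate 1 (-0.20), Ovol2 in I80 under quantile normalization (0.024), and Grhl2 between the treated lines without DI150 replicate 3 (-0.0041). Left-out libraries gave -0.30 to 0.11 for Grhl1 in I80 and -0.23 to 0.19 in DI150, -0.0041 to 0.027 for Grhl2 between the treated lines, and -0.20 to 0.25 for Ovol1 in DI150. TMM and median-of-ratios scaling shifted log2 fold changes by at most 0.013. Counts of called genes of the other lists moved by over 1.5 times, or to or from none, in 29 cases. In 283 cases they moved by 1.5 times at most or stayed the same. PBS and I80 share replicate numbers. With the replicate block, I80 against PBS called 6 members, and differences between replicates 1 and 2 correlated at 0.0228 across 11428 genes (genes are not replicates). No paired analysis was possible for DI150 because its columns and labels share 1 number only. Members had 90 reads or more in every library, and the fewest, 90 for Elf3 and 101 for Ovol2 in DI150 replicate 1, limit the precision of those values.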
